A study of Mus musculus with 6 samples.

Results

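The 9 genes described here encode transcription factors that set the identity of monocytes and macrophages, namely Maf, Spi1, Spic, Cebpa, Cebpb, Cebpd, Bhlhe40, Bhlhe41 and Id3. They were chosen by name, as lineage factors of macrophages, out of 21780 genes counted by bulk RNA sequencing, and all 9 were measured well enough to be tested. The cells were CD45+CD11b+ myeloid cells sorted from the pancreas of wild-type C57BL/6 mice of both sexes, 6 to 8 weeks old by the study's methods. The mice had received 1 intraperitoneal (IP) injection of whole glucan particles (WGP), the particulate β-glucan of Saccharomyces cerevisiae, or of phosphate-buffered saline (PBS) as the control, and cells were taken on day 7. There were 3 PBS and 3 WGP libraries. By the study's legend each sample was a separate animal and all came from 1 experiment, and the sources used here do not give the sex behind a library. The comparison addressed which factors of the lineage were at a different level in pancreatic myeloid cells after WGP.

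These factors act in layers. PU.1, the product of Spi1, is an ETS-family protein that opens the enhancers of nearly all myeloid genes, and SpiC, a close relative of PU.1, is needed for the iron-recycling macrophages of the spleen and bone marrow. The C/EBP proteins are basic leucine zipper factors: C/EBPα drives the entry of progenitors into the myeloid lineage, C/EBPβ is induced by inflammatory signals and is required for Ly6C-low monocytes, and C/EBPδ is an early responder to bacterial products. c-Maf restrains the division of macrophages and maintains genes of resident cells, Bhlhe40 and Bhlhe41 are repressors that bind E-boxes, and Id3 lacks a DNA-binding region and holds E proteins off DNA.

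Several of these proteins can bind DNA near their own or each other's genes. The bases just upstream of the RefSeq transcription start were therefore searched for the core letters that each class recognises. RefSeq windows of 250 bases on GRCm38.p6 were available for 5 of the 9 genes (Cebpa, Cebpb, Bhlhe41, Spic and Id3). The letters searched on both strands were GAGGAAGT for PU.1 and SpiC, TTGCNNAA for C/EBP, CACGTG, which reads the same on both strands, for Bhlhe40 and Bhlhe41, and TGCTGAC for c-Maf. No motif contains another. Of all 32851 windows, 2.44% held the first, 9.56% the second, 6.02% the third and 3.81% the last. Among the 5 windows 1 match was found, an E-box at bases 153 to 148 upstream of the RefSeq start of Bhlhe41. This gene encodes an E-box repressor itself. Its RefSeq start lies inside the GENCODE gene, so the E-box is closer to the GENCODE start. The stretches below show that E-box and the windows with the highest and the lowest share of G and C, those of Cebpb and Spic. The Cebpb window, at chr2:167688665-167688914 on the plus strand, was 81.6% G and C. The Spic window, at chr10:88683024-88683273 on the minus strand, was 44.8%, and the median window was 52.4%. The window of Id3, which like Spic was lower in WGP, was 62.8%, and those of Cebpa and Bhlhe41 were 66.4% and 73.6%. A link of base composition to the direction of change was not tested. The Spic window lies inside the GENCODE gene, in an intron of its longer transcripts. The Id3 window lies wholly within annotated exons. For Bhlhe41, 112 bases of the window, at chr6:145865559-145865670 on the minus strand, are shown, which lie outside annotated exons, and capitals mark the E-box. All are written 5′ to 3′.
Cebpb: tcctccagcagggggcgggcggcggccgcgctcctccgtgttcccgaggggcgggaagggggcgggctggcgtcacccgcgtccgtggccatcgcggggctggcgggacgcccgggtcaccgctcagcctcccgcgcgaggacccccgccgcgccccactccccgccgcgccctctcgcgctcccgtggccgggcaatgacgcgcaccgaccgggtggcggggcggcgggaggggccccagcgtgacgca
Spic: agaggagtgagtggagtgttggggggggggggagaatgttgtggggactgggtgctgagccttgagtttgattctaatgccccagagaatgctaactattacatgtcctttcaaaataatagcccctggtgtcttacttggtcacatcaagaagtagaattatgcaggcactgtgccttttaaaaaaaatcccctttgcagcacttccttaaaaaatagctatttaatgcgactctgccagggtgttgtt
Bhlhe41: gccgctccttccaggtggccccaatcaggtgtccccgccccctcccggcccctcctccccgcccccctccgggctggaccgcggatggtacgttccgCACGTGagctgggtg

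Before the comparison, 1 feature of the libraries has to be given. The 4 Y-linked genes Ddx3y, Eif2s3y, Kdm5d and Uty had together 0 counts in PBS 1, 8972 in PBS 2 and 10063 in PBS 3, and 0, 0 and 1 in the WGP libraries. PBS 1 was therefore the only control library that matched the WGP libraries in this respect, and whatever else set it apart from PBS 2 and PBS 3 cannot be told apart from it. PBS 1 also differed from PBS 2 and PBS 3 in the summed level of 9 resident macrophage markers, at 5080 CPM (counts scaled to library size by TMM) against 10213 and 13261, and of 5 B cell markers, at 2414 against 621 and 361. The 9 factors were therefore also fitted with the Y-linked counts as a covariate, which sets the WGP libraries in effect against PBS 1 alone, and with each library left out. Total counts were 35334645 to 40580936 in PBS and 38240913 to 43341834 in WGP. Searched from 10 counts up, the smoothed frequency of low counts peaked at 18 to 41 in each library. Whether counts stand for independent molecules was not tested and cannot be assumed. All 6 markers of myeloid identity, among them Ptprc (CD45) and Itgam (CD11b), were present in every library, at summed levels of 9327 to 15382 CPM in PBS and 21656 to 22951 CPM in WGP. In bulk RNA, fewer cells of a type and less RNA per cell cannot be told apart.

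Of the 9 factors, Cebpb rose and Maf, Spic and Id3 fell by at least 2-fold, Spi1 rose by less than 2-fold, and Cebpa, Cebpd, Bhlhe40 and Bhlhe41 did not pass the test. A gene was called at an adjusted p of at most 0.05 (edgeR's quasi-likelihood test, adjusted over 14429 genes) and a change of at least 2-fold. By that rule 1 of 9 was called higher, where 4.53% of all genes tested were, and 3 of 9 were called lower, where 4.96% were. The count called lower was 1 with the covariate and 2 to 3 with 1 library left out. With the adjusted p alone, 2 were higher against 7.54% of all genes and 3 were lower against 6.81%, a total of 5 that was 3 with the covariate and without PBS 2, PBS 3, WGP 1 or WGP 2. The same 5 genes were those whose PBS and WGP libraries did not overlap, as was the case for 32.0% of all genes. The median log2 change of the 9 was -0.21, beside -0.05 over all genes tested.

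**Figure D1:**
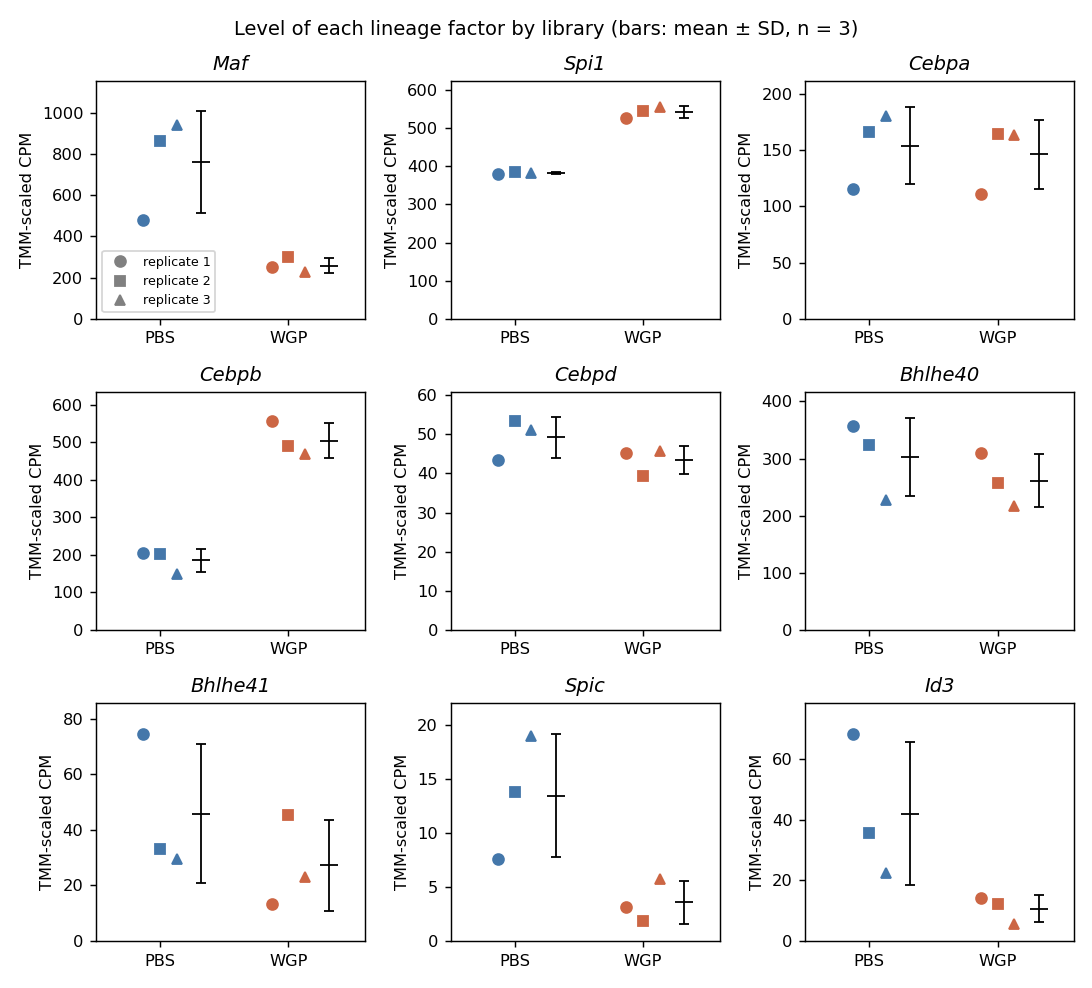
Level of each of the 9 factors in TMM-scaled CPM (vertical axes, from 0) in each PBS (blue) and WGP (orange) library, with the mean ± SD of the 3 libraries as a bar. Cebpb and Spi1 lay higher in all WGP libraries, Maf, Spic and Id3 lay lower in all of them, and the other 4 overlapped.

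Spi1 (chromosome 2, 91082390 to 91115756, plus strand, GRCm38) was the steadiest of the 9 factors within groups. Its level was 380, 385 and 382 CPM in the PBS libraries and 526, 546 and 557 CPM in the WGP libraries. Every WGP library lay above every PBS library, and the mean rose from 382 ± 2.56 to 543 ± 15.7 CPM (SD, n = 3 each). The log2 change was 0.51 (SE 0.13, adjusted p = 0.0256, edgeR), with a 95% interval of 0.22 to 0.80, so that the rise was below 2-fold over the whole interval. PBS 1 lay with the other controls for this gene, and with the covariate the log2 change was 0.52 (edgeR adjusted p = 0.0672). The adjusted p depended on the processing. It was at most 0.05 in 9 of 17 alternatives and reached 0.104 without WGP 3.

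Known target genes of PU.1 were higher in the same libraries. Of 16 such genes 13 passed the adjusted p, all higher, and 8 of these rose by at least 2-fold (11 with the covariate), with a median log2 change of 0.98 over the 16. Mpeg1, which encodes the pore-forming perforin-2, rose from 1021 ± 197 to 3766 ± 158 CPM, and Cybb, the catalytic subunit of the phagocyte NADPH oxidase, rose from 1046 ± 125 to 3229 ± 426 CPM. Csf1r, the receptor of macrophage colony-stimulating factor and a classical PU.1 target, did not pass, with a log2 change of -0.31 (edgeR adjusted p = 0.456). Itgam, which encodes the CD11b used for the sort, was higher by 0.79 on the log2 scale (edgeR adjusted p = 0.00618). The summed level of 8 markers of Ly6C-high monocytes was 1684 to 3000 CPM in PBS and 6301 to 8175 CPM in WGP, with 5 of the 8 called higher and none lower, and the part of these cells in the result was not tested.

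Spic (chromosome 10, 88674772 to 88685015, minus strand) had the lowest mean level of the 9 and moved in the opposite direction to Spi1. Its level was 7.62, 13.8 and 18.9 CPM in the PBS libraries, from 293, 537 and 775 counts, and 3.12, 1.86 and 5.77 CPM in the WGP libraries, from 115, 77 and 236 counts. The groups did not overlap, but PBS 1 and WGP 3 lay close together. The log2 change was -1.91 (SE 0.53, adjusted p = 0.0380, edgeR), with an interval of -3.09 to -0.72. This was the weakest of the calls, lost in 6 of 17 alternatives. With limma-voom the log2 change was -1.98 (limma-voom adjusted p = 0.0751). Without PBS 2, PBS 3, WGP 1 or WGP 2 it was -1.89, -1.58, -1.82 and -1.60 (edgeR adjusted p = 0.116, 0.159, 0.1165 and 0.0728). The call was also lost with the covariate, where the log2 change was -1.09. The 77 counts in WGP 2 were 2.41 times the count at which low counts peaked in that library.

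Of 6 genes regulated by SpiC 2 were called lower and 1 higher. The count called lower was 1 with the covariate and without PBS 2, PBS 3 or WGP 1, and 3 without PBS 1, and that called higher was 2 without PBS 3. Slc40a1, which encodes the iron exporter ferroportin, fell from 87.4 ± 19.6 to 38.9 ± 16.4 CPM (log2 change -1.17, edgeR adjusted p = 0.0315), and Cd163, the receptor for haptoglobin-hemoglobin complexes, from 1304 ± 694 to 57.6 ± 22.9 CPM. Treml4, a receptor of splenic macrophages and dendritic cells, rose from 33.5 ± 8.91 to 87.5 ± 17.8 CPM (log2 change 1.39, edgeR adjusted p = 0.00244). Hmox1, the heme-degrading enzyme, and Vcam1 did not pass, with log2 changes of -0.78 and 0.56 (edgeR adjusted p = 0.131 and 0.305). Of the 20 ETS-family genes tested, 1 was called higher (Etv6, a repressor) and 4 lower (Spib, Spic, Etv3 and Etv5), beside 4.53% and 4.96% of all genes. The count lower was 2 with limma-voom, with the covariate and without WGP 3, and 5 at most, and the count higher was 0 when libraries were scaled by their totals. Spib, the third member of the PU.1 subfamily and one used by B cells, fell from 103 ± 89.6 to 26.5 ± 8.25 CPM, and all 5 B cell markers were called lower as well, at summed levels of 361 to 2414 CPM in PBS and 86.8 to 169 CPM in WGP; whether the 2 are connected was not tested.

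Cebpb (chromosome 2, 167688915 to 167690418, plus strand) showed the largest rise of the 9. Its level was 205, 201 and 149 CPM in the PBS libraries and 556, 489 and 468 CPM in the WGP libraries. The lowest WGP library was thus above 2 times the highest PBS library, and the mean rose 2.73-fold, from 185 ± 31.0 to 504 ± 45.4 CPM. The log2 change was 1.45 (SE 0.17, adjusted p = 0.000272, edgeR), with an interval of 1.08 to 1.82. It stayed between 1.30 and 1.52 and was called in all 17 alternatives, and with the covariate it was 1.30 (edgeR adjusted p = 0.00504). Reads of Cebpb and of Tmem189, which overlaps it on the opposite strand, cannot be told apart if strand was not used in counting. Tmem189 had a log2 change of 0.35 (edgeR adjusted p = 0.149).

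No other C/EBP gene passed the test. Cebpa (chromosome 7, 35119293 to 35121928, plus strand) stood at 115, 166 and 181 CPM in PBS and 111, 165 and 164 CPM in WGP, so that each group held 1 low and 2 higher libraries and the groups overlapped. The log2 change was -0.07 (edgeR adjusted p = 0.884), with an interval of -0.54 to 0.40, which leaves room for a modest change either way, and its sign turned in 3 alternatives, among them the covariate (0.35, edgeR adjusted p = 0.447). Cebpd (chromosome 16, 15887286 to 15891031, plus strand) stood at 43.4, 53.4 and 51.1 CPM in PBS and 45.3, 39.4 and 45.7 CPM in WGP. PBS 1 lay among the WGP libraries, and the log2 change was -0.18 (edgeR adjusted p = 0.552, interval -0.57 to 0.21), or 0.0016 with the covariate. With 1 library left out it ran from -0.27 without PBS 1 to -0.11 without WGP 2. The more distant relatives Cebpe, Cebpg and Ddit3 did not pass, with log2 changes of -0.18, 0.37 and -0.48 (edgeR adjusted p = 0.922, 0.175 and 0.404), although Cebpg, at 53.6 to 64.4 CPM in PBS and 68.7 to 83.3 CPM in WGP, lay higher in all WGP libraries.

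The balance within the family was compared as a log2 ratio inside each library, which does not depend on the scaling of libraries. Only differences of such ratios are read, since their level includes the lengths of both genes. The ratio of Cebpb to Cebpa was 0.83, 0.27 and -0.28 in PBS and 2.32, 1.57 and 1.52 in WGP, a difference of 1.53, or 0.97 against PBS 1 alone. The ratio of Cebpd to Cebpb differed by -1.64, and both gave p = 0.1 in an exact two-sided permutation test, the smallest p that 3 against 3 libraries allow, and 0.133 when adjusted over the 8 ratios computed. For Cebpd to Cebpa the difference was -0.11 (exact permutation p = 0.7). Per kilobase of exon, Cebpb made up 63.0% ± 8.22 of Cebpa, Cebpb and Cebpd together in PBS and 83.2% ± 3.49 in WGP.

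**Figure D2:**
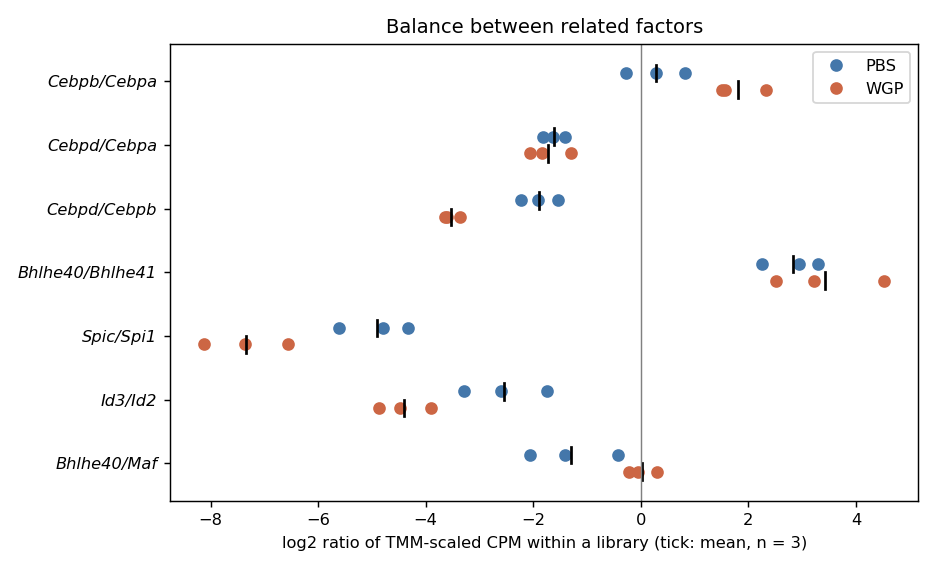
Log2 ratio of the TMM-scaled CPM of 2 related factors within a library (horizontal axis), for 7 pairs, with a point for each PBS (blue) and WGP (orange) library and a tick at the mean. The groups were apart for 5 pairs and overlapped for Cebpd/Cebpa and Bhlhe40/Bhlhe41.

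Genes that C/EBP proteins activate moved in both directions. Of 13 such genes 7 were called higher and 2 lower. Among the inflammatory ones, Il1b rose from 342 ± 17.0 to 2723 ± 801 CPM, Ptgs2, the inducible cyclooxygenase, from 101 ± 16.9 to 815 ± 198 CPM, and Saa3, an acute-phase protein, from 8.13 ± 6.08 to 799 ± 425 CPM. Arg1 rose as well, from 0.92 ± 0.83 to 262 ± 152 CPM, and Nos2 was at 0 in all PBS libraries and at 223 ± 262 CPM in WGP. Elane and Mpo, which encode granule proteins of neutrophil precursors, were called lower, with log2 changes of -3.47 and -5.68 (edgeR adjusted p = 0.0357 and 0.00490), but varied widely in PBS, at 24.2 ± 31.4 and 83.4 ± 113 CPM. The number called lower in this list ran from 0 with limma-voom to 5 with the covariate, and that called higher from 5 to 7. Summed neutrophil markers were 2308 to 6006 CPM in PBS, highest in PBS 1, and 2587 to 2676 CPM in WGP. Of the 10 neutrophil markers 1 was called in each direction, but with the covariate 7 were called lower and 0 higher, and without PBS 3 there were 4 lower and 1 higher.

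Maf (chromosome 8, 115682942 to 115707794, minus strand), which encodes c-Maf, fell to about the same level in all WGP libraries. It stood at 477, 865 and 943 CPM in PBS and 250, 298 and 224 CPM in WGP. The groups did not overlap, and PBS 1 lay between the other controls and the WGP libraries. The mean went from 762 ± 249 to 258 ± 37.6 CPM, 2.96-fold lower, and the log2 change was -1.56 (SE 0.24, adjusted p = 0.00179, edgeR), with an interval of -2.11 to -1.02. With the covariate the log2 change was -0.89 (edgeR adjusted p = 0.0126), which passes the adjusted p but not 2-fold. The adjusted p was at most 0.05 in all 17 alternatives.

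Among the small Maf proteins, which lack an activation region, Mafk was also called lower, from 152 ± 29.1 to 54.2 ± 1.49 CPM (log2 change -1.49, edgeR adjusted p = 0.000272). Maff passed only the adjusted p (log2 change -0.99, edgeR adjusted p = 0.0216), and Mafg did not pass (log2 change 0.07, edgeR adjusted p = 0.848).

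Genes under c-Maf were mostly lower. Of 11 such genes 8 were called lower (6 with the covariate) and none higher (1 under 4 of the alternatives), with a median log2 change of -2.57, and 5 of the 8 (Lyve1, Cd163, Mrc1, Folr2 and F13a1) are also resident macrophage markers. Among the other 6, Il10, the anti-inflammatory cytokine, fell from 28.3 ± 0.92 to 2.29 ± 0.63 CPM, and the complement genes C1qa and C1qc fell by 1.34 and 1.28 on the log2 scale (edgeR adjusted p = 0.00578 and 0.00797). C1qb, Axl and Cd5l did not pass, with log2 changes of -0.78, 0.00 and 1.74 (edgeR adjusted p = 0.0585, 0.997 and 0.133). All 9 resident macrophage markers were called lower, and their summed level was 5080 to 13261 CPM in PBS and 929 to 1087 CPM in WGP. Within the PBS libraries Maf and Spic had the same order as this sum, lowest in PBS 1 and highest in PBS 3. In WGP, where the sum was 929, 1079 and 1087 CPM, neither did. Cebpa and the summed markers of Ly6C-high monocytes had that order in PBS as well. The part of cell composition in the fall of Maf and Spic was not tested.

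**Figure D3:**
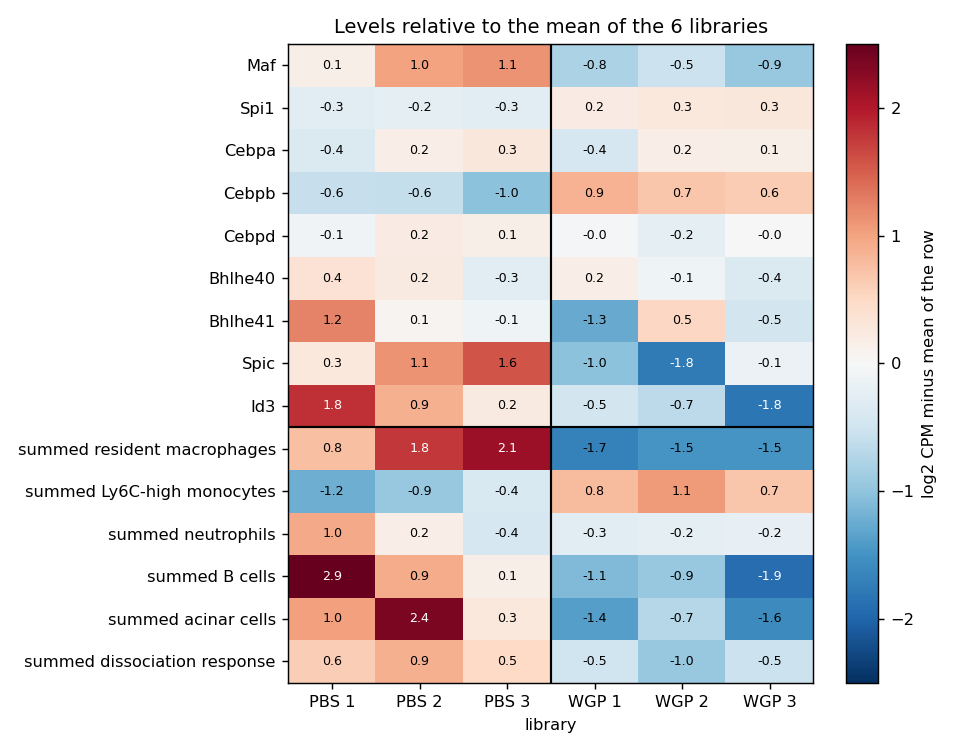
Log2 CPM of the 9 factors (upper rows) and of summed markers (lower rows) in each library, minus the mean of the row over the 6 libraries (colour scale and printed value). Maf and Spic were highest in PBS 2 and PBS 3, as were the summed resident macrophage markers. Id3, Bhlhe40 and Bhlhe41 were highest in PBS 1, as were the summed B cell and neutrophil markers.

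Bhlhe40 (chromosome 6, 108660629 to 108666925, plus strand), which represses Il10 and supports the division of resident macrophages, did not pass the test. It stood at 357, 324 and 227 CPM in PBS and 309, 258 and 216 CPM in WGP, with overlapping groups. The log2 change was -0.21 (SE 0.20, edgeR adjusted p = 0.542), with an interval of -0.66 to 0.23. It was -0.45 with the covariate (edgeR adjusted p = 0.306), -0.079 without PBS 1, -0.38 without PBS 3, -0.35 without WGP 1 and -0.094 without WGP 3. Its paralog Bhlhe41 (chromosome 6, 145858243 to 145865558, minus strand), a regulator of alveolar macrophages and of B-1 cells, was the most variable of the 9 in WGP. Its level was 74.6, 33.1 and 29.5 CPM in PBS and 13.3, 45.4 and 23.0 CPM in WGP. PBS 1 was high among controls and WGP 2 lay above PBS 2 and PBS 3, and the log2 change of -0.75 (SE 0.46, edgeR adjusted p = 0.347) had an interval of -1.76 to 0.27. It depended on single libraries, being -1.45 with the covariate (edgeR adjusted p = 0.0930), -0.20 without PBS 1, -0.42 without WGP 1 and -1.33 without WGP 2 (edgeR adjusted p = 0.0758).

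The ratio of Bhlhe40 to Bhlhe41 differed by 0.59 on the log2 scale between groups (exact permutation p = 0.5), with values of 0.31 without PBS 1, 0.038 without WGP 1 and 1.05 without WGP 2, and Bhlhe40 to Maf by 1.31 (exact permutation p = 0.1, the smallest possible, 0.133 adjusted). Against PBS 1 alone the latter difference was 0.43. Among the other repressors of this class, Hes1, a target of Notch signalling, fell from 24.2 ± 9.88 to 1.68 ± 0.69 CPM (log2 change -3.84, edgeR adjusted p = 0.000411), and it was the only 1 of 8 tested that was called.

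Id3 (chromosome 4, 136143497 to 136145755, plus strand), which is needed for the development of Kupffer cells and has a role in B cells, had a lower level in every WGP library than in any PBS library. It stood at 68.1, 35.5 and 22.4 CPM in PBS and 14.0, 12.2 and 5.52 CPM in WGP. The PBS libraries spread over 3-fold, and the mean went from 42.0 ± 23.5 to 10.6 ± 4.47 CPM. The log2 change was -1.99 (SE 0.45, adjusted p = 0.0132, edgeR), with an interval of -2.98 to -0.997. It was called in all 17 alternatives, between -2.69 with the covariate (edgeR adjusted p = 0.00415) and -1.45 without PBS 1 (edgeR adjusted p = 0.0363). In the PBS libraries Id3 and Bhlhe41 had the order of the summed B cell markers, highest in PBS 1, whereas in WGP neither did. That order in PBS was shared by Cebpb, Bhlhe40 and the summed neutrophil and T and NK cell markers. The part of B cells or of other cells in the fall of Id3 was not tested.

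Id2, the Id gene of dendritic cells and innate lymphoid cells, did not pass the test. It stood at 230, 216 and 219 CPM in PBS and 209, 274 and 163 CPM in WGP (log2 change -0.04, edgeR adjusted p = 0.933), and the ratio of Id3 to Id2 differed by -1.87 (exact permutation p = 0.1, the smallest possible, 0.133 adjusted). Of the 7 Id and E protein genes, 3 were called lower (4 with the covariate, and 2 with limma-voom or without PBS 1, PBS 2, WGP 1 or WGP 3) and none higher. Id1 fell by 2.22 on the log2 scale (edgeR adjusted p = 0.0346), and Tcf4, which encodes the E protein E2-2 of plasmacytoid dendritic cells and B cells, fell from 256 ± 17.1 to 63.9 ± 8.20 CPM (edgeR adjusted p = 2.40e-05). Tcf12 passed only the adjusted p (log2 change -0.59, edgeR adjusted p = 0.0362), and Tcf3 did not pass (log2 change -0.54, edgeR adjusted p = 0.169).

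**Figure D4:**
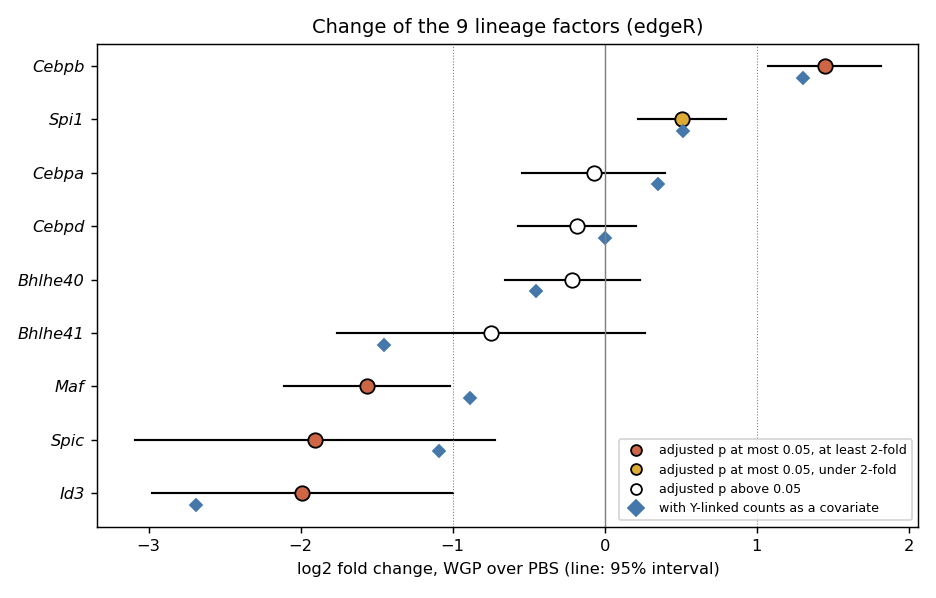
Log2 fold change of WGP over PBS (horizontal axis) for the 9 factors, with the 95% interval as a line, and the value with the Y-linked counts as a covariate as a diamond. The intervals of Cebpb and Spi1 lay above 0 and those of Maf, Spic and Id3 below it, and the covariate moved Maf and Spic toward 0 and Id3 away from it.

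Levels of different factors were compared per kilobase of exon. In PBS the order by mean was Spi1, Cebpb, Maf, Bhlhe40, Cebpa, Id3, Cebpd, Bhlhe41 and Spic, from 142 to 3.50 CPM per kilobase. Neighbours in that order overlapped between libraries except Spi1 and Cebpb, Cebpa and Id3, and Cebpd and Bhlhe41. In WGP, Cebpb came first in all 3 libraries, at 312 to 369 CPM per kilobase, ahead of Spi1, at 195 to 207. Maf went from rank 4, 3 and 2 in the PBS libraries to rank 5 in every WGP library, at 27.2 to 36.2 CPM per kilobase, and Spic came last in every WGP library.

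**Figure D5:**
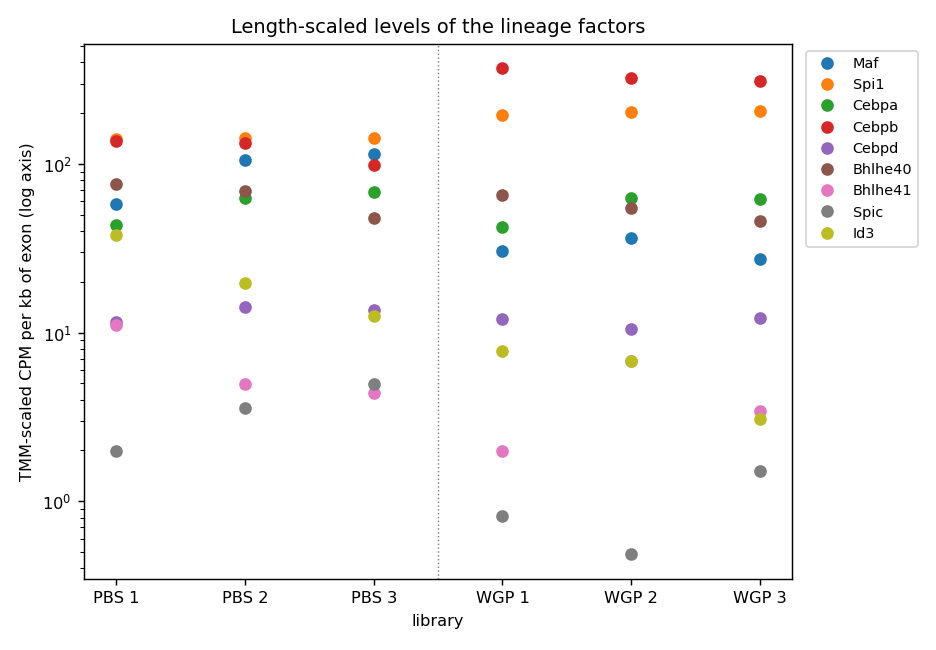
TMM-scaled CPM per kilobase of exon (vertical log axis) of the 9 factors in each library (horizontal axis). Spi1 was the highest in each PBS library and Cebpb the highest in each WGP library.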

How the data were processed

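CD45+CD11b+ cells of the pancreas were sorted after collagenase digestion, giving 6 poly-A libraries. The authors aligned single-end reads to mm10 with STAR 2.6, counted them per gene with HTSeq 0.10.0 and deposited raw counts. The annotation release and the strand setting are not given in the sources used here, so Maf, Cebpa, Cebpb, Cebpd, Bhlhe40 and Bhlhe41, which each overlap a gene on the opposite strand, may hold reads of that gene. Coordinates and exon lengths are from GENCODE vM21.

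In R 4.3.3, testing covered 14429 protein-coding genes whose RLE-normalized counts summed to 10 or more over the 6 libraries. They were tested with the quasi-likelihood test of edgeR 4.0.16 after TMM, with Benjamini-Hochberg adjustment over all of them. The script was tested on simulated data, where the share of false calls by DESeq2 was above its threshold. A gene was called at an adjusted p of 0.05 or below and a change of 2-fold or more in either direction. The standard error is the absolute log2 change over the square root of F. For the 8 ratios, 0.1 CPM was added to each gene. The values of 1 gene, and the ratio that uses it, are not reported here. The members and lists were chosen with earlier results of these data known. Named genes were the 9 members and, of the other lists, a part of the called genes and of the 3 with the smallest p. Partners in ratios and markers at 0 in all libraries were named too. Not every called gene of a list is named. Csf1r, Itgam, Hmox1, Vcam1, Cebpe, Mafg, Axl, Cd5l, C1qb, Tcf3, Tcf12 and Tmem189 were added with their values known. So were the Y-linked genes and the myeloid factors of the closing section. The 17 alternatives were RLE, upper-quartile and total scaling, limma-voom (limma 3.58.1), DESeq2 1.42.0 (Wald), 3 other filters, all features, a replicate block, the Y-linked covariate and each of 6 libraries left out.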

Additional observations from a re-analysis of the deposited data

How the results depend on the processing

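Cebpb was called higher under all 17 alternatives. The count of factors called lower, 3, was 1 with the Y-linked covariate, where Maf (-0.89) and Spic (-1.09) lost the call, and 2 to 3 with 1 library left out. The count past the adjusted p alone, 5, was 3 with the covariate and 3 to 5 with 1 library left out. Cebpa, at -0.07, turned to 0.35 with the covariate and ran from -0.25 to 0.092 with 1 library left out, where it was 0.060 without PBS 3 and 0.092 without WGP 1. Cebpd turned from -0.18 to 0.0016 with the covariate, and the difference of the Cebpd to Cebpa ratio, at -0.11, ran from -0.33 to 0.057, which was the value without WGP 2. Of all genes 1369 were called, 568 with a log2 change of at least 2, 1705 with DESeq2 and 1146 to 1396 with 1 library left out. Scaling by library totals alone shifted the median log2 change of all genes from -0.05 to -0.16, and no called factor lost its call, while Spi1 had an edgeR adjusted p of 0.0678.

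The replicate numbers did not pair the libraries: deviations of same-numbered libraries correlated at 0.05, -0.08 and 0.07, and PBS 2 correlated best with WGP 3. With the replicate block 1341 genes, and 1 factor higher and 3 lower, were called, while Spi1 had an edgeR adjusted p of 0.0619.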

Other observations

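Among 24 other myeloid lineage factors tested, 2 were called higher and 3 lower in WGP libraries, beside 4.53% and 4.96% of all genes tested, and the median log2 change of the list was 0.01. The count higher was 1 with scaling by library totals and without PBS 3 or WGP 3, and 3 without PBS 1 or WGP 1. Nr1h3, which encodes the oxysterol receptor LXRα, rose from 12.9 ± 4.66 to 51.6 ± 3.72 CPM (log2 change 2.01, edgeR adjusted p = 0.000949), and Tfec, a relative of MITF, by 1.07 on the log2 scale (edgeR adjusted p = 0.0179). Klf4 fell from 1183 ± 139 to 258 ± 58.6 CPM, Klf2 from 906 ± 118 to 401 ± 111 CPM and Irf4 from 266 ± 139 to 38.6 ± 11.7 CPM. Irf8, which specifies monocytes, passed only the adjusted p (log2 change 0.96, edgeR adjusted p = 0.00521). Zeb2 and Runx1 did not pass, with log2 changes of -0.05 and -0.34 (edgeR adjusted p = 0.895 and 0.221). Summed levels of 9 genes of the dissociation response, of which 6 were called lower, were 23832 to 30969 CPM in PBS and 8706 to 11877 CPM in WGP. The part of this response in the falls of Klf4, Klf2, Hes1 and Id1 was not tested.

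All 9 factors were also set against Csf1r inside each library, ratios chosen after values were seen. The groups stayed apart for Maf, Cebpb, Spic and Id3 and overlapped for Spi1, Cebpa, Cebpd, Bhlhe40 and Bhlhe41. For Spi1 the log2 ratio was -2.40, -3.34 and -3.46 in PBS and -2.42, -2.24 and -2.30 in WGP. The log2 ratio of Maf to Csf1r was -2.07, -2.17 and -2.16 in the PBS libraries and -3.49, -3.11 and -3.61 in the WGP libraries, a difference of -1.27. Relative to the summed resident macrophage markers, the log2 ratio of Maf was -3.41, -3.56 and -3.81 in PBS and -1.89, -1.85 and -2.28 in WGP, so that Maf fell less than those markers did. Id3 relative to the summed B cell markers was at -5.15, -4.13 and -4.01 in PBS and -3.43, -3.79 and -3.97 in WGP.

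The summed level of 7 endothelial and fibroblast markers was 1820 CPM in WGP 2 and 71.2 to 280 CPM in the other 5 libraries. Of the 5 mast cell and basophil markers Cpa3 was at 0 in all libraries, as were the platelet genes Gp9 and Gp1bb. The summed acinar markers were 978 to 4130 CPM in PBS and 271 to 498 CPM in WGP, with all 6 called lower. Eosinophil, dendritic cell and T and NK cell markers each had 1 gene called lower (Ear2, Cd209a and Gzma). That of eosinophils was lost with limma-voom, with filterByExpr and without PBS 2, WGP 2 or WGP 3, that of T and NK cells with limma-voom and without PBS 2, WGP 1 or WGP 3, and that of dendritic cells with the Y-linked covariate.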
